A study of Mus musculus with 12 samples.

Results

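The mouse counterparts of 7 genes in which inherited mutations cause Parkinson disease or a related parkinsonism, Lrrk2, Vps35, Pink1, Park7, Atp13a2, Pla2g6 and Fbxo7, were followed in midbrain astrocytes of Cd38-deficient mice. They were taken by gene symbol from the 20614 genes of the deposited expression table, and all 7 were found and measured. RNA was sequenced from astrocytes of 3 Cd38+/+, 3 Cd38+/- and 6 Cd38-/- male mice aged 12 to 14 months. Cd38 encodes an ectoenzyme that consumes NAD, and Cd38-/- mice carry a germline disruption of the gene (allele Cd38tm1Lnd, C57BL/6J background), so that the allele was missing from every cell type and not from astrocytes alone, and Cd38+/- mice carry 1 disrupted copy. The dissected tissue, called midbrain, comprised striatum, thalamus and substantia nigra. Endothelial cells, myelin and CD11b-positive microglia were removed with magnetic beads before astrocytes were captured with an antibody against ACSA-2. Values are transcript abundances (TPM), which account for transcript length and add up to the same total in every library, so a TPM is a share of the RNA measured and the read depth behind it is unknown.

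As background, these genes act in a few connected pathways. Lrrk2 encodes a large kinase that phosphorylates Rab GTPases on membranes, and Vps35 encodes the core of the retromer, which returns cargo from endosomes to the Golgi apparatus and the cell surface. Pink1 encodes a kinase that accumulates on damaged mitochondria and marks them for removal, and Park7 encodes DJ-1, a protein that protects cells against oxidative stress. Atp13a2 encodes a lysosomal transporter of polyamines, Pla2g6 a calcium-independent phospholipase that acts on membrane phospholipids, and Fbxo7 an F-box protein that serves in ubiquitin ligase complexes and in mitophagy. The diseases are best known for the loss of dopaminergic neurons, but the genes are expressed in many cell types, glia among them.

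The targeted gene and the cell markers were checked first. Cd38 averaged 125 ± 22.2 TPM (SD, n = 3) in Cd38+/+, 90.6 ± 0.231 (n = 3) in Cd38+/- and 15.7 ± 5.21 (n = 6) in Cd38-/- libraries, a log2 fold change of -2.96 in Cd38-/- against Cd38+/+ (limma, q = 0.00116) and of -0.44 in Cd38+/- (limma, q = 0.226). All 9 astrocyte markers were above 0 in each genotype, and their summed level ranged from 9236.9 to 12812.8 TPM in Cd38+/+, from 13545.1 to 15156.1 in Cd38+/- and from 10855.6 to 13418.8 in Cd38-/- libraries. The Cd38+/+ libraries stood apart in detection. They held 13160 to 13516 genes above 0, against 16160 to 16327 in Cd38+/- and 15920 to 17906 in Cd38-/- libraries, and of the 11845 genes with a mean above 5 TPM in at least 1 genotype, 193 to 336 were listed at 0 in each Cd38+/+ library against 4 to 14 in the mutant ones. Markers of other cells were present as well. The summed level of neuronal markers was between 24.35 and 110.39 TPM (Th was listed at 0 in all Cd38+/+ libraries), oligodendrocyte markers between 1294.68 and 17798.9 TPM (Mog at 0 in all Cd38+/+ libraries) and choroid plexus and ependymal markers between 1619.09 and 8675.72 TPM (Kl at 0 in all Cd38+/+ libraries). Single markers at 0 do not describe their lists. By median the neuronal sum was 46.64 TPM in Cd38+/+, 31.64 in Cd38+/- and 37.75 in Cd38-/- libraries. In the same order the endothelial sum was 407.38, 204.15 and 270.805 TPM. The oligodendrocyte sum was 4942.91, 3821.9 and 6237.15 TPM, and the choroid plexus and ependymal sum 1697.06, 1869.48 and 3340.94 TPM. The oligodendrocyte precursor sum was 365.47, 426.54 and 394.88 TPM, and the mural sum 145.11, 179.91 and 185.69 TPM. The mural sum was lower in all Cd38+/+ libraries (102.3 to 150.17 TPM) than in any Cd38+/- library (150.4 to 230.77), and it overlapped with Cd38-/- (149.55 to 238.48). The contribution of the detection gap or of these cells to any difference from Cd38+/+ was not tested, and no batch was given in the labels.

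At the level of the genotypes, 2 of the 7 genes differed between Cd38-/- and Cd38+/+ astrocytes. Lrrk2 and Vps35 rose, and both had ranges that did not overlap. A differentially expressed gene (DEG) was one with a q value under 0.05 over all genes tested and a change of at least 1.2-fold. By that rule 970 of 11722 genes (8.28%) were DEGs between these genotypes. With 7 genes, a count of 2 is too few to set them apart from that share. No member was a DEG in Cd38+/- against Cd38+/+, where limma called none of 11763 genes (0%), or in Cd38-/- against Cd38+/-, where 4 of 11563 genes (0.0346%) were called. At an unadjusted p under 0.05, limma passed 2 of the 7 genes in Cd38+/- (13.5% of all genes) and 3 in Cd38-/- astrocytes (23.6%) when each was compared with Cd38+/+, and 1 between the mutant genotypes (11.2%). The estimate was above 0 for 5 of 7 genes in Cd38+/- (64.4% of all genes), for 5 in Cd38-/- (64.3%) and for 3 between the mutants (45.4%). All 7 were tested each time, but Lrrk2 passed the filter of a mean above 5 TPM only through the mutant genotypes in the comparisons with Cd38+/+. These comparisons share the 3 Cd38+/+ libraries.

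**Figure D1:**
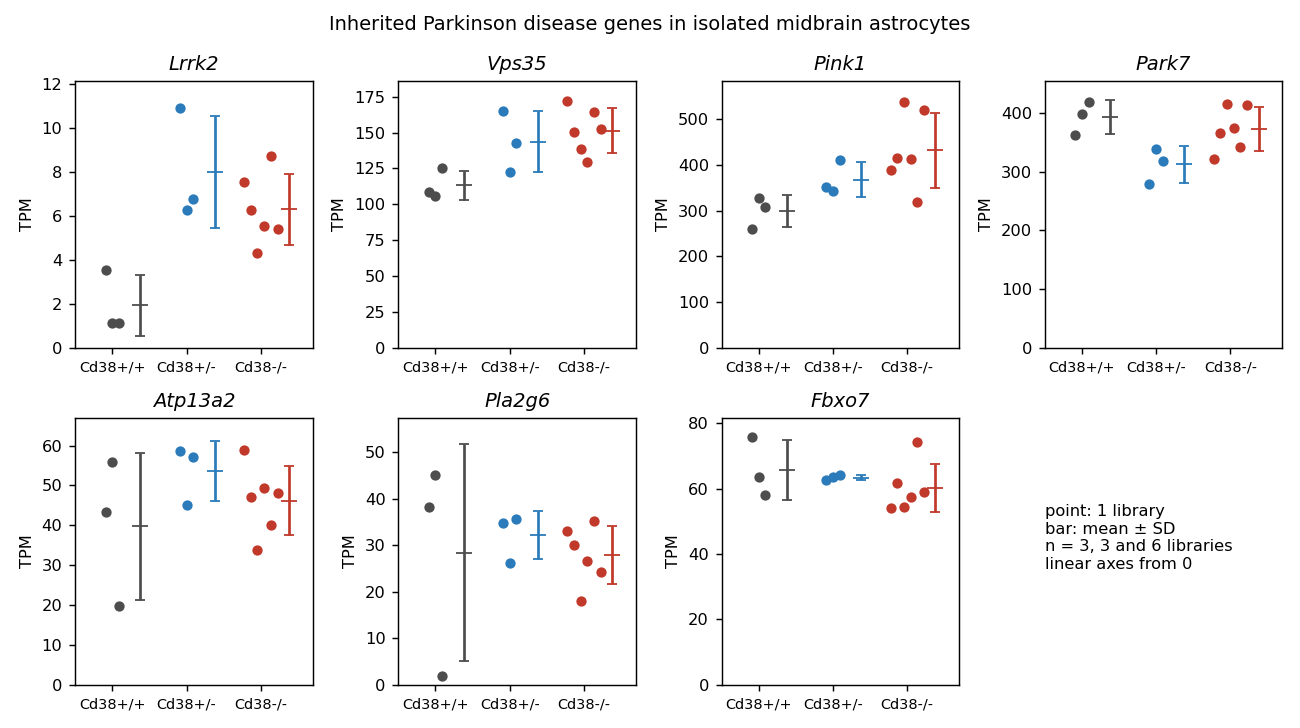
TPM of each of the 7 genes (vertical axes, linear from 0) in the 3 Cd38+/+, 3 Cd38+/- and 6 Cd38-/- libraries; each point is 1 library and the bar beside it is the mean ± SD. The highest Cd38+/+ library for Lrrk2 (3.53 TPM) lies under the lowest mutant library (4.33 TPM), and a single Cd38+/+ library lies far below the rest for Pla2g6 (1.85 TPM).

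Of the membrane trafficking genes, Lrrk2 (ENSMUSG00000036273, chr15:91673175-91816120, plus strand, GRCm38) had the largest estimated change of the 7 genes in Cd38+/- and Cd38-/- astrocytes. It was read at 3.53, 1.14 and 1.15 TPM in the Cd38+/+ libraries, at 10.94, 6.28 and 6.79 in the Cd38+/- libraries and between 4.33 and 8.74 in the 6 Cd38-/- libraries, with a median of 5.91. Every mutant library was therefore above every Cd38+/+ library, whereas the mutant genotypes overlapped. The means were 1.94 ± 1.38 (SD, n = 3), 8.0 ± 2.56 (n = 3) and 6.31 ± 1.60 (n = 6) TPM. On the log2(TPM + 1) scale Cd38-/- exceeded Cd38+/+ by 1.38 (SE 0.39, limma, q = 0.0413), which is 1.23 above the median of all genes tested, itself at 0.15. In Cd38+/- the difference was 1.67 (SE 0.62, limma, q = 0.204) and it was not a DEG. The direction held when any 1 library was left out, with differences of 1.2 to 1.74 in Cd38-/-, but the call was lost without each of the 6 Cd38-/- libraries in turn, with q values up to 0.0998 by limma. It was also lost in 6 of 13 alternatives, of which quantile normalization gave the smallest difference, 0.31.

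The level of Lrrk2 was low in all libraries, and a low level is where the added pseudocount has most weight. A difference of 1.81 with a pseudocount of 0.1 and of 0.71 with 5 bracketed the reported value. Lrrk2 is also expressed in myeloid cells, and the summed level of 7 microglial markers was 6.93 to 17.93 TPM in Cd38+/+, 24.59 to 27.95 in Cd38+/- and 19.04 to 42.31 in Cd38-/- libraries, so it too was lower in every Cd38+/+ library than in any mutant library. Cx3cr1 and Tmem119, a pair of these markers, were listed at 0 in all Cd38+/+ libraries. Csf1r, another of them, went the other way by mean only, at 5.17 TPM in Cd38+/+, 4.49 in Cd38+/- and 4.53 in Cd38-/- libraries. Its Cd38+/+ values reached from 0 to 12.41 TPM. By median it was lower in Cd38+/+ (3.11 TPM) than in Cd38+/- (4.52) or Cd38-/- (3.585). The remaining markers had lower means in Cd38+/+ than in either mutant genotype. The part of residual microglia in the Lrrk2 difference was not tested. In a bulk sample, fewer cells of a type and less RNA per cell cannot be told apart.

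Vps35 (ENSMUSG00000031696, chr8:85260392-85299802, minus strand) was the other called gene. Its levels were 108.33, 106.15 and 125 TPM in Cd38+/+, 165.13, 122.71 and 143.05 in Cd38+/- and between 129.28 and 171.85 in Cd38-/- libraries, with a median of 151.465. All 6 Cd38-/- libraries thus lay above the 3 Cd38+/+ libraries, whereas 1 Cd38+/- library lay under the highest Cd38+/+ library. The means were 113 ± 10.3 (SD, n = 3), 144 ± 21.2 (n = 3) and 151 ± 15.7 (n = 6) TPM. The difference was 0.41 in Cd38-/- (SE 0.13, limma, q = 0.0492), and 0.33 in Cd38+/- (SE 0.18, limma, q = 0.270). Of the 0.41, 0.15 is the median shift of all genes, and the call was lost when libraries were scaled by median ratios (0.29, limma, q = 0.0872), in 8 of 13 alternatives in all, and in 7 of 9 fits without 1 library, all but those without Cd38+/+ replicate 3 or Cd38-/- replicate 4. Of the exonic bases of Vps35, 171 (1.92%) are shared with Orc6 on the opposite strand, and the sources used here do not say whether strand was used in counting.

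Over all genes, the difference from Cd38+/+ was larger for longer transcripts. Genes tested were put into 5 equal bins by the median length of their protein-coding transcripts, and the median log2 difference of Cd38-/- from Cd38+/+ went from 0.019 in the shortest bin to 0.29 in the longest. Lrrk2, at 8275 bases longer than 98.4% of genes, falls in the longest bin and Vps35, at 3474 bases, in the next. After removal of each library's trend on length and GC content, the differences were 1.03 for Lrrk2 (limma, q = 0.0610) and 0.010 for Vps35 (limma, q = 0.500).

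The mitochondrial and redox genes moved apart in estimate, though neither was a DEG. Pink1 (ENSMUSG00000028756, chr4:138313409-138326307, minus strand) was read at 260.76, 328.21 and 307.16 TPM in Cd38+/+, at 351.04, 342.06 and 410.73 in Cd38+/- and between 318.18 and 536.14 in Cd38-/- libraries, with a median of 413.93. The 3 Cd38+/- libraries were above all Cd38+/+ libraries, and 1 Cd38-/- library lay within the Cd38+/+ range. Means were 299 ± 34.5 (SD, n = 3), 368 ± 37.3 (n = 3) and 432 ± 82.4 (n = 6) TPM. Pink1 missed the threshold in Cd38-/- by a little, at 0.51 (SE 0.16, limma, q = 0.0522), and it crossed it in 4 of 13 alternatives and when Cd38+/+ replicate 2 or 3 was left out. The difference in Cd38+/- was 0.30 (SE 0.15, limma, q = 0.259).

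Park7 (ENSMUSG00000028964, chr4:150897133-150914437, minus strand) was 1 of 2 genes with a negative estimate in both mutant genotypes. It had 362.09, 398.06 and 418.03 TPM in Cd38+/+ and 278.68, 339.1 and 318.47 TPM in Cd38+/- libraries. The 6 Cd38-/- libraries ranged from 320.87 to 414.31 TPM with a median of 369.715. Every Cd38+/- library was under every Cd38+/+ library, and the Cd38-/- libraries overlapped both of these genotypes. Means were 393 ± 28.3 (SD, n = 3), 312 ± 30.7 (n = 3) and 372 ± 37.6 (n = 6) TPM. The estimates were -0.33 in Cd38+/- (SE 0.14, limma, q = 0.228) and -0.082 in Cd38-/- (SE 0.12, limma, q = 0.392). With a median transcript length of 798.5 bases Park7 is in the shortest bin of genes, where the median difference of all genes was -0.069 in Cd38+/- against 0.42 in the longest bin. With the length and GC trend removed, Park7 was at -0.35 in Cd38+/- (limma, q = 0.311) and at -0.18 in Cd38-/- (limma, q = 0.170).

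Atp13a2 and Pla2g6, the lysosomal and lipid genes, were dominated by 1 library. Atp13a2 (ENSMUSG00000036622, chr4:140986873-141007330, plus strand) was at 43.38, 55.97 and 19.83 TPM in Cd38+/+, at 58.77, 45.08 and 57.13 in Cd38+/- and between 33.9 and 58.91 in Cd38-/- libraries, with a median of 47.59. Pla2g6 (ENSMUSG00000042632, chr15:79286228-79328390, minus strand) was at 38.18, 45.13 and 1.85 TPM in Cd38+/+, at 34.73, 26.24 and 35.54 in Cd38+/- and between 18.01 and 35.08 in Cd38-/- libraries, with a median of 28.285. In both genes the low value belonged to Cd38+/+ replicate 3, and the genotypes overlapped. The means of Pla2g6 were 28.4 ± 23.2 (SD, n = 3), 32.2 ± 5.15 (n = 3) and 27.8 ± 6.27 (n = 6) TPM, and those of Atp13a2 were 39.7 ± 18.3, 53.7 ± 7.48 and 46.2 ± 8.54 TPM.

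The estimates for these genes were positive and imprecise. For Atp13a2 they were 0.53 in Cd38+/- (SE 0.37, limma, q = 0.332) and 0.31 in Cd38-/- (SE 0.28, limma, q = 0.299). For Pla2g6 they were 0.93 (SE 0.92, limma, q = 0.418) and 0.71 (SE 0.69, limma, q = 0.315). Without Cd38+/+ replicate 3 the sign turned for Pla2g6 in both mutants, to -0.37 in Cd38+/- and -0.59 in Cd38-/-, and for Atp13a2 in Cd38-/-, to -0.11. Other genes also had a value far under the rest, counted where it was under 0.1 times the lowest other library of the genotype. Only genes with that lowest other value above 5 TPM were considered. Pla2g6 met this mark in Cd38+/+ replicate 3 and Atp13a2 did not. In each Cd38+/+ library 107 to 258 genes met it (1.10% to 2.63% of those considered), and in the mutant libraries 0 to 4 genes (0% to 0.0366%).

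Fbxo7 (ENSMUSG00000001786, chr10:86021972-86051873, plus strand) had the smallest estimated change of the 7 genes in Cd38+/- astrocytes. It was at 75.96, 63.46 and 58.08 TPM in Cd38+/+, at 62.66, 63.53 and 64.07 in Cd38+/- and between 54.12 and 74.18 in Cd38-/- libraries, with a median of 58.33. All genotypes overlapped. Means were 65.8 ± 9.17 (SD, n = 3), 63.4 ± 0.711 (n = 3) and 60.2 ± 7.43 (n = 6) TPM, and the estimates were -0.044 (SE 0.19, limma, q = 0.589) and -0.13 (SE 0.15, limma, q = 0.362). The antisense gene A230060F14Rik covers 314 exonic bases of Fbxo7 (5.08%), and reads of the 2 genes cannot be told apart there if strand was not used.

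**Figure D2:**
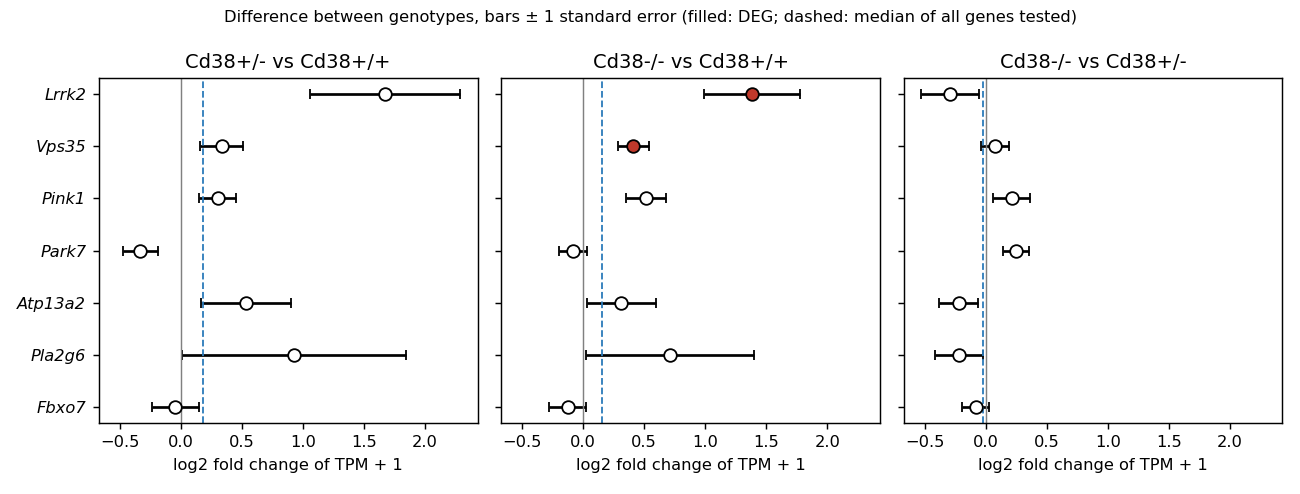
Log2 fold change of TPM + 1 (horizontal axes) for the 7 genes in each comparison of genotypes, with bars of ± 1 standard error, filled points for DEGs and a dashed line at the median of all genes tested. Lrrk2 (1.38) and Vps35 (0.41) are the filled points, both in Cd38-/- against Cd38+/+, and the widest bars in the comparisons with Cd38+/+ belong to Pla2g6.

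The mutant genotypes were also set against each other, a comparison that does not use the Cd38+/+ libraries. All 7 genes overlapped between Cd38-/- and Cd38+/-, where 5.73% of all genes did not. The estimates ran from -0.29 for Lrrk2 (SE 0.24, limma, q = 0.489) to 0.25 for Park7 (SE 0.11, limma, q = 0.304), and the Park7 value was the 1 that passed at an unadjusted p, 0.0376 by limma. Pink1 was at 0.21 (SE 0.15), Vps35 at 0.077 (SE 0.12), Fbxo7 at -0.082 (SE 0.11), and Atp13a2 and Pla2g6 were both at -0.22 (SE 0.16 and 0.20). A q above the threshold does not show that the mutants were alike. Counted the same way, 3 of 7 genes did not overlap between Cd38+/- and Cd38+/+ against 22.5% of all genes. Lrrk2 and Pink1 were higher (15.5% of all genes) and Park7 was lower (6.94%). Between Cd38-/- and Cd38+/+ 2 of 7 did not overlap, against 11.8%, and both were higher (8.21%). Lrrk2 is in both counts, and it passed the filter in these comparisons only through the mutant genotypes. With 7 genes, these counts are too few to set them apart from the shares.

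The levels themselves spanned a wide range, and TPM allows genes of unequal length to be ordered. By mean over the 12 libraries the order was Pink1, Park7, Vps35, Fbxo7, Atp13a2, Pla2g6 and Lrrk2. Park7 was above Vps35, and Vps35 above Fbxo7, in 12 of 12 libraries with no overlap of ranges in any genotype. Fbxo7 was above Atp13a2 in 11 of 12 libraries and Atp13a2 above Pla2g6 in 12 of 12, but over separate libraries the ranges of both pairs overlapped in Cd38-/-, and those of Atp13a2 and Pla2g6 also in Cd38+/+, although Atp13a2 was above Pla2g6 within each of these libraries. Pla2g6 was above Lrrk2 in every library, with ranges that met only in Cd38+/+, where the 1.85 TPM of Pla2g6 lay under the 3.53 TPM of Lrrk2.

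The upper pair changed places between genotypes. Pink1 exceeded Park7 in 8 of 12 libraries, and Park7 was the higher in the 3 Cd38+/+ libraries and in 1 Cd38-/- library. The ratio of Park7 to Pink1 within a library was 1.21 to 1.39 in Cd38+/+, 0.775 to 0.991 in Cd38+/- and 0.773 to 1.08 in Cd38-/- libraries, so both mutant genotypes lay wholly under Cd38+/+. Such a ratio does not depend on a library's scaling factor. The ratio of Vps35 to Park7 was 0.267 to 0.299, 0.362 to 0.593 and 0.335 to 0.536, and that of Lrrk2 to Fbxo7 was 0.0180 to 0.0465, 0.0989 to 0.175 and 0.0796 to 0.139, and each was higher in both mutants without overlap. Of the 21 ratios among the 7 genes, 8 did not overlap between Cd38+/- and Cd38+/+ and 6 between Cd38-/- and Cd38+/+, against 21.2% and 12% of all pairs of genes above 0 in every library. None did between the mutants (7.02% of all pairs). The ratios reuse the same 7 genes, so they are not separate results and their counts cannot be read as an excess over these shares. Lrrk2, which passed the filter only through the mutant genotypes, is in many of those without overlap. These are its ratios to Park7, Atp13a2 and Fbxo7 in both mutants and to Pink1 and Vps35 in Cd38+/-. The ratios named here were picked after their values were seen, and the genes in them differ in length.

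**Figure D3:**
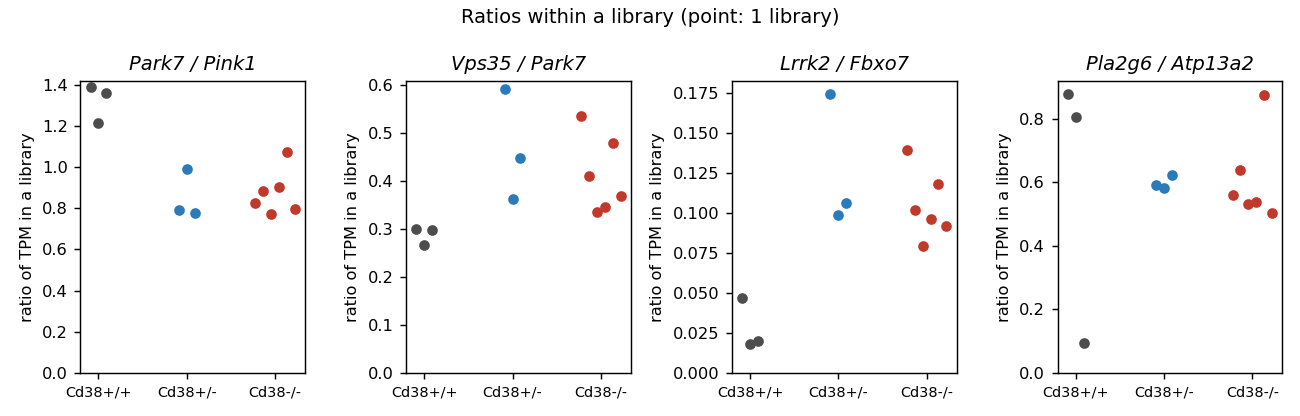
Ratio of the TPM of 2 genes within a library (vertical axes, linear from 0) for 4 pairs, with 1 point for each Cd38+/+, Cd38+/- and Cd38-/- library. Park7 over Pink1 is at 1.21 or more in every Cd38+/+ library and at 1.08 or less in every mutant library, and Pla2g6 over Atp13a2 spans 0.0933 to 0.880 in Cd38+/+ libraries.

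The genes whose levels followed each member most closely were found by Pearson's r of log2(TPM + 1) over the 12 libraries, among 11845 genes. As the genotypes and the detection gap are shared by all genes, these values describe likeness only. For Lrrk2 the nearest were Brox (0.986), Snx19 (0.981) and Vps26b (0.980), the last a subunit of the retromer to which Vps35 belongs. For Vps35 they were Stxbp4 (0.971), Cfap65 (0.966) and Ccng1 (0.963). Park7 was nearest to Ost4 (0.975), a small subunit of the oligosaccharyltransferase, and to the ribosomal protein genes Rpl34 (0.966) and Rpl13 (0.963). Pink1 and Fbxo7 had no gene so close, with Akr1a1 (0.853), Rps27rt (0.852) and Crygn (0.846) for Pink1 and Stimate (0.852), Plgrkt (0.840) and Snx32 (0.834) for Fbxo7. For Atp13a2 the nearest were Gpd2 (0.951), Klhl18 (0.942) and Edem3 (0.939), and for Pla2g6 Zfp647 (0.989), Smpd3 (0.989) and Dnajc11 (0.981). Pla2g6 was at 1.85 TPM in Cd38+/+ replicate 3 and at 18.01 TPM or more in every other library. That library weighs heavily in its r, which was not computed without it.

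The partners of the 7 genes were then described from lists of their pathways. Of 152 listed genes, all were in the table and 145 were tested in Cd38-/- against Cd38+/+, of which 10 rose and 4 fell, against 6.42% and 1.86% of all genes. Of the 10, Rab43 and Rab39b were tested only because their Cd38-/- mean was above 5 TPM, so these counts describe the genes that passed the filter. The same shares apply to each list below, where counts this small cannot be read as an excess. In Cd38+/- against Cd38+/+ and in Cd38-/- against Cd38+/- limma called no listed gene.

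Retromer and its endosomal partners, the list around Vps35, had a median of 0.38 in Cd38-/- against 0.15 for all genes, the highest of the 8 lists as reported. Of 20 genes, 4 rose and 1 fell (6.42% and 1.86% of all genes), counts too small to set the list apart. Snx27, a sorting nexin that selects cargo for the retromer, rose from 31.8 to 51.8 TPM (log2 0.68, limma, q = 0.0312), and all 6 Cd38-/- libraries (41.24 to 62.81 TPM) were above the Cd38+/+ libraries (31.23, 28.39 and 35.91). Vps26b, a core subunit, rose from 26.3 to 40.8 TPM (0.63, limma, q = 0.0469). Tbc1d5, a Rab7 GTPase-activating protein that binds the retromer, rose from 6.69 to 15.5 TPM (1.18, limma, q = 0.0362), and M6pr, a mannose 6-phosphate receptor and retromer cargo, from 126 to 164 TPM (0.39, limma, q = 0.0469). Washc1, a subunit of the actin-nucleating WASH complex, fell from 19.0 to 8.61 TPM (-1.05, limma, q = 0.0281), and its Cd38+/+ libraries (14.57, 20.5 and 22.01) were above all Cd38-/- libraries (6.91 to 9.75). With the length and GC trend removed, all 4 rises of this list lost their call, at 0.27 for Snx27, 0.28 for Vps26b, 0.80 for Tbc1d5 and 0.049 for M6pr, whereas Washc1 kept it at -1.07. The list median was then 0.053, against -0.070 for all genes, and was no longer the highest, since the lipase list had 0.083.

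Among 33 genes of mitochondrial import, fusion and mitophagy, the list around Pink1, 2 rose and 1 fell (6.42% and 1.86% of all genes). The list median was 0.21. Mfn1, a mitofusin of the outer mitochondrial membrane, rose from 137 to 200 TPM (0.54, limma, q = 0.0308), and Fundc1, a mitophagy receptor, rose by 0.56 (limma, q = 0.0492). Tomm5, a small subunit of the outer membrane translocase, fell from 135 to 91.9 TPM (-0.54, limma, q = 0.0439). Of 15 genes of redox defence around Park7, none was a DEG by limma and 1 did not overlap (11.8% of all genes), with a median of 0.068.

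Of the 17 Rab substrates and regulators listed for Lrrk2, 14 were tested, 1 rose and 1 fell (6.42% and 1.86% of all genes). The list median was 0.064. Rab43 rose by 2.08 (limma, q = 0.0304) from 6.09, 0.13 and 0.55 TPM in the Cd38+/+ libraries to 6.8 to 11.03 in Cd38-/- libraries, and with a Cd38+/+ mean of 2.26 TPM it passed the filter only through the Cd38-/- group. Rab3a, a Rab of secretory vesicles, fell from 67.1 to 41.2 TPM (-0.66, limma, q = 0.0394). In the remaining lists, 1 of 14 polyamine and P5 ATPase genes rose (Oaz2, an ornithine decarboxylase antizyme, 0.44, limma, q = 0.0443), 1 of 12 cullin ligase partners fell (Dcun1d1, a neddylation factor, -0.69, limma, q = 0.0408) and 1 of 18 tested lipases and acyltransferases rose. The last was Lpcat2, which acylates lysophospholipids, from 11.5 to 24.8 TPM (1.07, limma, q = 0.0334). Their medians were 0.15, 0.033 and 0.29. Of 19 tested genes of other inherited parkinsonism, Rab39b, a Rab GTPase gene, rose from 1.66 to 7.43 TPM (1.71, limma, q = 0.0180), with a list median of 0.14, and it too passed the filter only through the Cd38-/- group. Each of the 14 calls was lost in 4 to 7 of the 9 fits without 1 library, and all 14 were lost without each of Cd38-/- replicates 1, 2, 5 and 6. They were also all lost when libraries were weighted by quality or the replicate number entered as a block. Such losses were not particular to the listed genes. Over all genes the 970 DEGs became 112, 74, 93 and 154 without these replicates in turn, 1 with quality weights and 2 with the block. In the block fit, Cd38-/- libraries whose number no other genotype has add nothing to the comparison. With the length and GC trend removed, 8 of the 10 rises and 0 of the 4 falls lost their call.

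**Figure D4:**
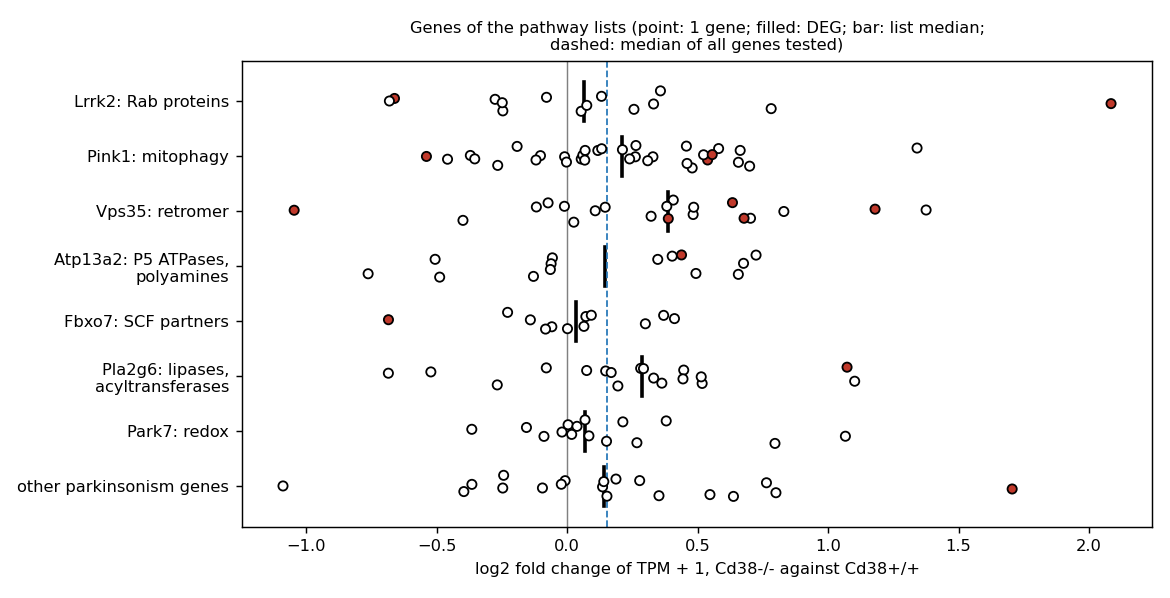
Log2 fold change of TPM + 1 in Cd38-/- against Cd38+/+ (horizontal axis) for each tested gene of the 8 pathway lists, with filled points for DEGs, bars for list medians and a dashed line at the median of all genes (0.15). The retromer list has 5 filled points (8.28% of all genes were DEGs), and the redox list has none. The retromer median of 0.38 is the highest as reported but not with the length and GC trend removed (0.053).

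**Figure D5:**
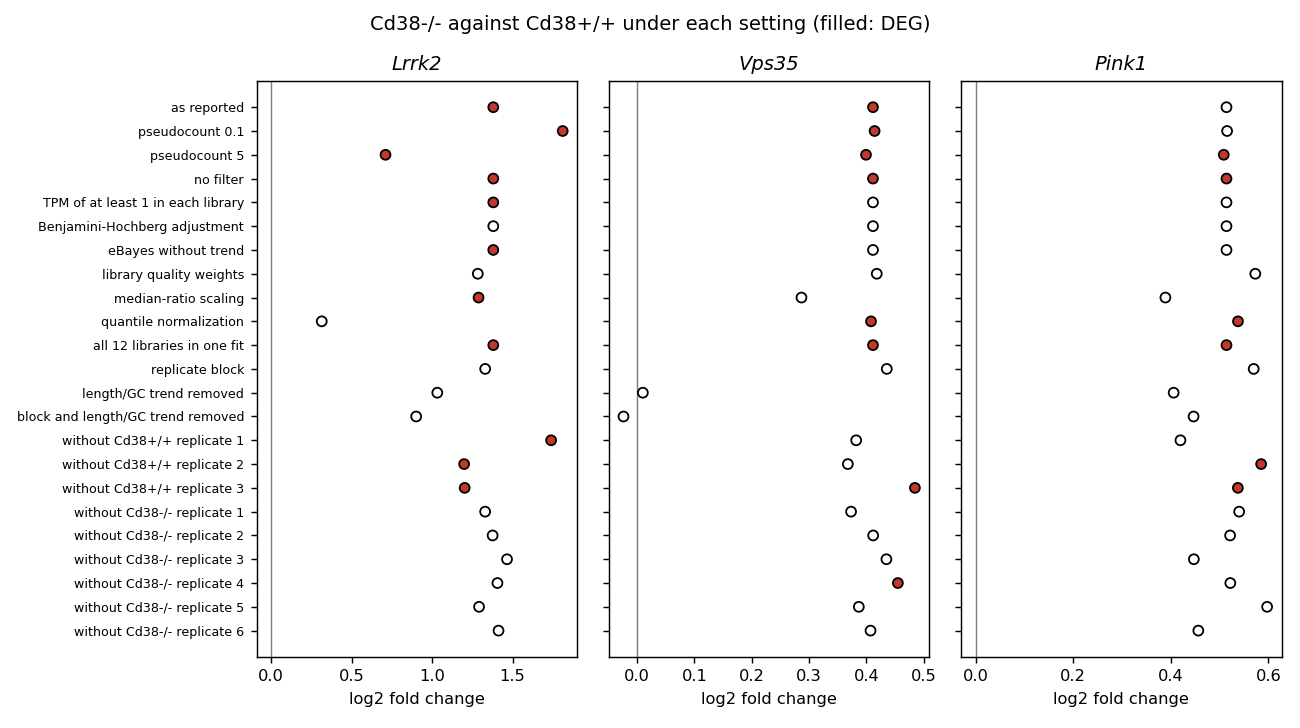
Log2 fold change in Cd38-/- against Cd38+/+ (horizontal axes) of Lrrk2, Vps35 and Pink1 as reported and under each alternative and each left-out library (vertical axis), with filled points for DEGs. Lrrk2 is above 0 throughout (0.31 to 1.81), Vps35 reaches -0.023 once, and Pink1 is filled in a minority of settings (0.39 to 0.60).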

How the data were processed

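RNA of ACSA-2-selected astrocytes was made into cDNA with the SMART-Seq v4 kit and sequenced as paired ends. Per the submitters' processing notes, reads were handled with Trim Galore 0.6.4, STAR 2.7.1a and RSEM 1.2.28 on mm10 (DESeq2 1.36.0 is also listed), and the authors deposited TPM values for 12 libraries; the annotation is not given in the sources used here. The labels state polyA RNA and the series text rRNA depletion. TPM keeps no read depth, so no counting interval is given. Genotypes were taken from the labels and compared in pairs with limma 3.58.1 in R 4.3.3 (lmFit, eBayes with trend) on log2(TPM + 1), using genes with a mean above 5 TPM in at least 1 compared genotype. DEGs had a Storey q under 0.05 over all genes tested and at least a 1.2-fold change, and 13 alternatives and left-out libraries were tried. Fold changes on this scale understate those of low genes. Positions, lengths and overlaps are from GENCODE on GRCm38. The code was tested on simulated data. The text names all 7 members and Cd38, every DEG of the pathway lists, and the 3 genes nearest each member by Pearson's r. The members and lists were chosen with earlier results of these data known.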

Additional observations from a re-analysis of the deposited data

How the results depend on the processing

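The deviations of same-numbered libraries of the 3 genotypes had r of -0.31 to 0.45 over 9 pairs, and 2 of 9 libraries were nearest to their own number. These few correlations cannot settle whether the numbers pair the samples, and the labels do not say. The fits as reported did not pair them. With the replicate number as a block, 4, 2 and 2 DEGs were called in Cd38+/- against Cd38+/+, Cd38-/- against Cd38+/+ and Cd38-/- against Cd38+/-, and with the block and removal of the trend on length and GC content 1, 2 and 339, and in each case 0 of the 7 genes in Cd38-/- against Cd38+/+. In Cd38+/- against Cd38+/+ (0 DEGs by limma, 1586 genes at an unadjusted p under 0.05), 663 were called with no filter, 9 without the eBayes trend, 30 with library quality weights, 1464 with all 12 libraries in one fit, which called 1 of the 7 genes (Lrrk2), and 0 to 10 with 1 library left out. In Cd38-/- against Cd38+/+ (970), 2283 were called with no filter, 326 with the Benjamini-Hochberg adjustment, 1 with quality weights, 1822 in one fit and 74 to 3119 without 1 library (1829, 1931 and 3119 without Cd38+/+ replicates 1, 2 and 3, and 112, 74, 573, 93 and 154 without Cd38-/- replicates 1, 2, 3, 5 and 6). The share of DEGs that were higher, 77.5%, became 58.5% after scaling by median ratios, 50.5% after quantile normalization and 31.8% with the length and GC trend removed. Of the 7 genes, 1 was called with a minimum of 1 TPM in each library, without the eBayes trend or with median-ratio scaling, 0 with the Benjamini-Hochberg adjustment, quality weights or the trend removed, and 0 to 3 without 1 library. Pink1 was called beside Lrrk2 and Vps35 with a pseudocount of 5, with no filter and in one fit, and beside Vps35 but not Lrrk2 after quantile normalization. In Cd38-/- against Cd38+/- (4), 3120 genes and 2 of the 7 (Atp13a2 and Pla2g6) were called with quality weights, 1 gene with median-ratio scaling, 1 in one fit and 0 to 93 without 1 library.

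Over the 3 comparisons, direction changed in 8 of 441 repeats for the 7 genes, 26 lost a call without changing direction, 9 gained one and 398 did neither. Only Lrrk2 and Vps35 in Cd38-/- against Cd38+/+ had a call to lose. Lrrk2 lost it in 6 of 13 alternatives and in 6 of 9 fits without 1 library. Vps35 lost it in 7 of 13 alternatives, besides 1 in which it changed direction, and in 7 of 9 fits without 1 library. With the length and GC trend removed, Vps35 came to -0.11 in Cd38+/- with and without the block, and with the block to -0.023 in Cd38-/-. Without 1 library, Fbxo7 ranged from -0.13 to 0.062 in Cd38+/- (the latter without Cd38+/+ replicate 1), Pla2g6 from -0.37 to 1.64 in Cd38+/- and from -0.59 to 1.42 in Cd38-/-, and Atp13a2 from -0.11 to 0.61 in Cd38-/- (each lowest without Cd38+/+ replicate 3), and Vps35 from -0.031 (without Cd38+/- replicate 2) to 0.18 in Cd38-/- against Cd38+/-. The medians of the 8 pathway lists moved in 59 of 504 repeats, and in Cd38-/- against Cd38+/+ 3 of the 8 were below 0 with median-ratio scaling and 6 with the trend removed. The causes were not tested. Depth is unknown.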
